A study of Homo sapiens with 5 samples.

Results

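Human chromosome 19 carries the densest collection of zinc finger genes in the genome, and its ZNF genes were followed here in TF-1 cells with and without a knockout of *MTSS1*. They were defined as the protein-coding genes on chromosome 19 whose symbol is ZNF followed by a number, with at most 1 letter after it. This gave 239 genes of the 27328 in the count table, from 246 such genes in the GENCODE 44 annotation. TF-1 is a human erythroleukemia line, used as a model of acute myeloid leukemia. The control group comprised 2 pools transduced with an sgRNA against Renilla luciferase (sgCtrl). The *MTSS1* knockout group comprised 3 pools, one each for sgMTSS1_1, sgMTSS1_2, and sgMTSS1_3. Each pool combined 4 single-cell clones of this one line, so that p-values measure the spread between pools of clones, and a guide and its pool cannot be told apart. A control pool and a pool of another guide had been left out by the study after an outlier test and were not analysed here.

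Most of these genes encode KRAB zinc finger proteins. Their fingers, each built around 2 cysteines and 2 histidines (C2H2), bind DNA, while the KRAB box recruits the scaffold protein TRIM28 (KAP1), which in turn brings SETDB1, HP1 proteins, and histone deacetylases to the bound site. Many of them are known to silence transposable elements, and they multiplied by tandem duplication, which left them in clusters of similar sequences. In the translated canonical transcripts, 200 of the 239 genes had a KRAB A box and 39 had none. The number of C2H2 fingers ranged from 1 to 36, with a median of 12.

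For 3 of these genes, ZNF419, ZNF420, and ZNF557, the expression level was significantly higher in the knockout pools. The bases that encode their KRAB A boxes are shown because they carry the feature that links these genes to TRIM28. They were read from the canonical GENCODE 44 transcripts on the plus strand of GRCh38, and lie in exon 3 of 5 of ZNF419 (chr19:57491477-57491572), exon 4 of 5 of ZNF420 (chr19:37091001-37091096), and exon 5 of 8 of ZNF557 (chr19:7076387-7076482). Capitals mark the adjacent codons for glutamate and tryptophan, which are conserved in this box.
ZNF419: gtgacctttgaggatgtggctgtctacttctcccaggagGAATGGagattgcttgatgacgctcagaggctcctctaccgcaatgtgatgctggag
ZNF420: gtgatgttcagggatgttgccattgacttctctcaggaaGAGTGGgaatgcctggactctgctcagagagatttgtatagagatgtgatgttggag
ZNF557: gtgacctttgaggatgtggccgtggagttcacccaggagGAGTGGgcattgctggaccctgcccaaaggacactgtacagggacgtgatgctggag

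The boxes of ZNF419 and ZNF557 were identical at 73 of 96 bases (76.0%). Those of ZNF420 and ZNF557 shared 69 bases (71.9%), and those of ZNF419 and ZNF420 shared 63 (65.6%). ZNF419 has 11 fingers, ZNF420 has 19, and ZNF557 has 10. The first finger of each is shown with the codons for its cysteines and histidines in capitals, since these residues hold the zinc ion. They lie in the last exon of each gene, at chr19:57493170-57493232, chr19:37127412-37127474, and chr19:7082911-7082973, respectively.
ZNF419: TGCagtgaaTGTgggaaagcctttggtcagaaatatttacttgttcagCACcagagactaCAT
ZNF420: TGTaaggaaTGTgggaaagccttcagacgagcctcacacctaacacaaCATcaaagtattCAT
ZNF557: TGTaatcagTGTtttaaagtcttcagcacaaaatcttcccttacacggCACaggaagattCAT

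Total counts were 2849979 and 3408827 in the control libraries and ranged from 5442639 to 8854899 in the knockout libraries, so that all knockout libraries were the deeper ones. Levels are given as CPM, the counts scaled to a common library size with TMM factors. QuantSeq reads lie at transcript 3′ ends, and CPM values were therefore not divided by transcript length. A count of 3 was worth between 0.389 and 0.938 CPM. The 11 markers of TF-1 identity, among them CD33, CD34, KIT, and GATA1, were all expressed. Of 9 measured markers of other cell types, 6 did not pass the filter on low counts. Those that passed included PECAM1, which blood cells also express, with 144 and 116 CPM in the control pools and 201, 238, and 199 CPM in the knockout pools, and KRT18 with 53.5 and 110.0 CPM against 135 to 138 CPM. PECAM1 and KRT18 were thus above both control pools in every knockout pool, though edgeR called neither (adjusted p = 0.184 and 0.246). Reads of ribosomal protein genes took 7.56% and 9.31% of the control libraries and between 11.9% and 17.7% of the knockout libraries. Mitochondrial reads took 13.9% of the library of control pool 1, 8.63% of that of control pool 2, and 6.71% to 7.44% of the knockout libraries. The part of either share in the results was not tested. *MTSS1* itself had 204 and 87.9 CPM in the control pools and 104, 139, and 49.9 CPM in the knockout pools, so that the groups overlapped (edgeR's quasi-likelihood test, Benjamini-Hochberg adjusted p = 0.494). Small Cas9 edits need not remove the mRNA, and reads from the 3′ end do not show the cut site, so this level does not check the labels.

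The zinc finger genes of chromosome 19 were expressed at low levels. The count table holds no gene of any kind with 0 counts in all 5 libraries. That each of the 239 genes had a count is therefore no result about them. Whether the annotated genes missing from the table had no reads is not shown by it. Of the 239, 193 passed the filter and were tested. The 46 untested genes had at most 53 counts over all libraries together, and 31 of them had 1 to 29. The median level of the tested genes was 9.15 CPM, against 15.8 CPM over all 14391 tested genes, and 102 of the 193 lay under 10 CPM. Only 14 exceeded 50 CPM. The highest level was that of ZNF428, a small protein with 1 finger and no KRAB box, with a mean of 372 CPM. ZNF146, which consists almost entirely of its 10 fingers, followed with 212 CPM, and ZNF791, a KRAB protein with 17 fingers, with 112 CPM. The 32 tested genes without a KRAB box had a median of 23.7 CPM and the 161 tested genes with one had 8.03 CPM.

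To ask whether loss of MTSS1 altered this gene family, knockout pools were compared with control pools. Calls required a log2-fold change of over 1, or under -1, together with an adjusted p below 0.05. This held for 3 of the 193 tested genes (1.55%), all of them higher in the knockout, whereas 5.18% of all tested genes were called, 4.17% as higher and 1.01% as lower. No member was called lower by edgeR's quasi-likelihood test, at its unadjusted p under 0.05 there were 10 lower and 12 higher, and DESeq2 likewise called 0 lower. DESeq2 called 4 members and 9.03% of all genes, limma-voom 3 members and 4.41%, and edgeR with the replicate number as a block 4 members and 7.6%. Replicate number 3 occurs only in the knockout group, so the sgMTSS1_3 pool adds nothing to the comparison in the block fit. The shares at the unadjusted p, 5.18% lower and 6.22% higher, stand beside 9.23% and 14.1% of all tested genes, and both were below this background. For calls as lower, the background of 1.01% was itself close to 0. The tested members also had lower levels, with a median of 9.15 CPM against 15.8 CPM over all tested genes. The part of these levels in the shares was not tested.

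The expression level of ZNF557 (ENSG00000130544, chr19:7069703-7087968) was 12.5 and 11.3 CPM in the control pools and 40.2, 36.1, and 47.0 CPM in the knockout pools, given here and below in the order of their guides. Each of these lay far above both control pools, and the control pools were close to each other. The mean increased from 11.9 ± 0.836 CPM (SD, n = 2) to 41.1 ± 5.49 CPM (SD, n = 3), a 3.45-fold difference (log2-fold change 1.78, SE 0.32, 95% confidence interval 1.06 to 2.51, edgeR adjusted p = 0.0192). Of the 3 genes, it had the smallest adjusted p. It stayed called with DESeq2, limma-voom, and the other scaling factors and filters tried, but not without the sgMTSS1_1 or the sgMTSS1_3 pool.

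ZNF420 (ENSG00000197050, chr19:37007857-37130368) is also known as Apak, a KRAB protein that restrains p53. It had 9.38 and 19.97 CPM in the control pools and 73.4, 40.6, and 45.6 CPM in the knockout pools. The groups did not overlap, but the control pools differed from each other, and the sgMTSS1_1 pool stood above the other knockout pools. The log2-fold change was 1.86 (SE 0.43, 95% confidence interval 0.88 to 2.83, edgeR adjusted p = 0.0422), a 3.62-fold difference. Exons of ZNF420 overlap 2 unnamed genes on the opposite strand, and whether counting used the strand is not given in the sources used here.

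ZNF419 (ENSG00000105136, chr19:57487711-57496098), known as a source of a minor histocompatibility antigen, had 5.94 and 11.6 CPM in the control pools and 32.2, 28.3, and 24.01 CPM in the knockout pools. Again all knockout pools lay above both control pools. The log2-fold change was 1.68 (SE 0.39, 95% confidence interval 0.79 to 2.56, edgeR adjusted p = 0.0427), corresponding to a 3.20-fold difference. Its exons overlap an unnamed gene on the same strand. All 3 calls depended on single libraries: without the sgMTSS1_1 pool or without the sgMTSS1_3 pool, edgeR called 0 of the 3, with adjusted p-values from 0.0672 to 0.131, and the share called among all genes dropped to 0.831% and 1.44%, respectively. Without the sgMTSS1_2 pool only ZNF557 remained called of the 3. Leaving out either control pool leaves 1 control pool and no spread between controls, so calls from those fits are not given. The direction was kept in every one of these fits, with log2-fold changes of 1.72 to 1.91 for ZNF557, 1.43 to 2.53 for ZNF420, and 1.29 to 2.27 for ZNF419.

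**Figure D1:**
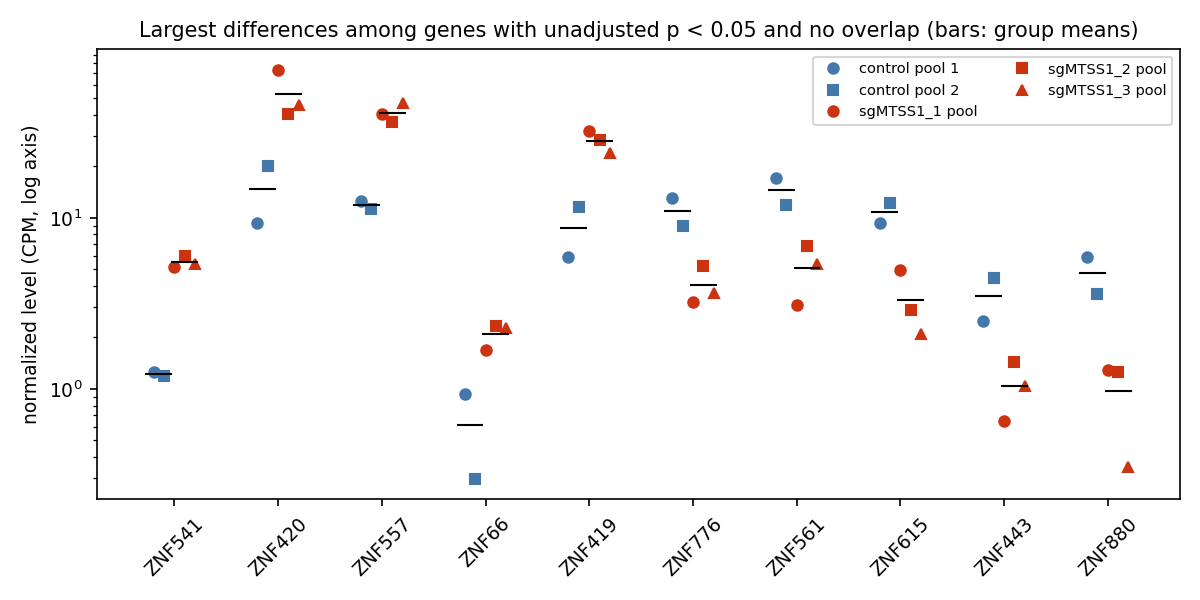
Normalized level in CPM (log axis) of the 10 chromosome 19 ZNF genes with the largest differences among those with an unadjusted p under 0.05 and groups that did not overlap, in each of the 2 control pools (blue) and 3 knockout pools (red), with black bars at the group means. The knockout pools lie above both control pools for the 5 genes on the left and below both for the 5 on the right, of which none was called.

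Just outside the threshold among the increases lay ZNF226 and ZNF541, named here because of their adjusted p-values. ZNF226, a KRAB protein with 17 fingers, had 7.50 and 8.34 CPM in the control pools and 27.6, 19.9, and 18.1 CPM in the knockout pools (log2-fold change 1.46, SE 0.37, edgeR adjusted p = 0.0527). ZNF541 is known from meiotic cells of the testis, where it belongs to a histone deacetylase complex. It had 1.25 and 1.19 CPM in the control pools and 5.19, 5.96, and 5.39 CPM in the knockout pools (log2-fold change 2.15, SE 0.54, edgeR adjusted p = 0.0522). This was the largest positive log2-fold change among the 193 genes, and it rested on 4 counts in each control library. ZNF66 had the fourth largest positive value by the rule used for naming genes, 1.73 (SE 0.75, edgeR adjusted p = 0.203), with 3 and 1 counts in the control libraries and 13 in each knockout library. Of the 50-base stretches in the last 500 bases of its transcript, 46.6% also occur in other genes, and reads from these could not have been mapped uniquely.

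Among genes with an unadjusted p under 0.05 and no overlap between groups, none of the 5 with the most negative values passed the adjusted threshold. ZNF880 had 5.94 and 3.58 CPM in the control pools and 1.30, 1.26, and 0.348 CPM in the knockout pools (log2-fold change -2.24, SE 0.63, edgeR adjusted p = 0.0726). ZNF615 had 9.38 and 12.2 CPM in the control pools and 4.93, 2.89, and 2.09 CPM in the knockout pools (log2-fold change -1.68, SE 0.47, edgeR adjusted p = 0.0692). Both encode KRAB proteins, with 13 and 19 fingers, and both lie in the cluster between 51.6 and 53.6 Mb. ZNF561 had 17.2 and 11.9 CPM in the control pools and 3.11, 6.86, and 5.39 CPM in the knockout pools (log2-fold change -1.51, edgeR adjusted p = 0.0765). For ZNF776 these levels were 13.1 and 8.94 CPM and 3.24, 5.24, and 3.65 CPM (log2-fold change -1.45, edgeR adjusted p = 0.0800). ZNF443 ranged from 2.501 to 4.470 CPM in the control pools and from 0.649 to 1.44 CPM in the knockout pools (log2-fold change -1.75, edgeR adjusted p = 0.127), and 36.4% of the stretches at its 3′ end also occur in its neighbor ZNF799. In each of these 5 genes all knockout pools lay below both control pools. The same held for ZNF627, which was not among these 5. It had the smallest adjusted p of the tested members with negative values (log2-fold change -1.14, SE 0.31, edgeR adjusted p = 0.0624). Its levels were 27.8 and 34.3 CPM in the control pools and 13.2, 15.3, and 13.7 CPM in the knockout pools. Among the genes removed by the filter, ZNF626 had 0 counts in both control libraries and 14, 3, and 3 counts in the deeper knockout libraries, which is at the limit of detection.

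Seen over the whole family, the differences were small and went both ways. Among the 193 genes, log2-fold changes had a median of -0.08, with an interquartile range from -0.52 to 0.40, and the median of all tested genes was -0.03. Values were positive for 85 genes and negative for 108. In 36 genes (18.7%) every knockout pool lay above both control pools, in 39 (20.2%) every knockout pool lay below both, and in 118 the groups overlapped. Over all tested genes these shares were 22.2% and 19.2%. A log2-fold change beyond 1 in either direction was found for 28 genes (14.5%), compared with 22.9% of all tested genes. The precision was limited: the median SE was 0.43, and for only 26 genes (13.5%, against 15.6% of all tested genes) did the 95% confidence interval exclude a 2-fold change in both directions.

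The 161 tested genes with a KRAB box had a median log2-fold change of -0.06, and 3 of them were called (1.86%, against 5.18% of all tested genes). The 32 without a KRAB box had a median of -0.17, and 0 were called by edgeR or DESeq2. At edgeR's unadjusted p under 0.05, 6.21% with the box were higher and 4.97% lower. Without it, 2 were higher and 2 lower (6.25% each), beside 14.1% and 9.23% of all tested genes. Of the 189 tested ZNF genes on other chromosomes, 4 were called higher and 2 lower (3.17%), with a median of -0.02. The other protein-coding genes of chromosome 19 had a median of -0.17, and 31 of 676 were called higher and 25 lower (8.28%). These are descriptions, and no difference between the gene groups was tested.

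Along the chromosome, 229 of the 239 genes fell into 9 clusters when a gap of over 1 Mb began a new one and at least 5 genes were required, and 10 lay outside. The 3 called genes came from 3 different clusters, and no cluster held more than 1. Over the 175 pairs of adjacent tested genes within clusters, the log2-fold changes had a Pearson correlation of 0.0719, and 96 pairs (54.9%) had the same sign. Adjacent genes share their libraries, so this is a description across genes.

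**Figure D2:**
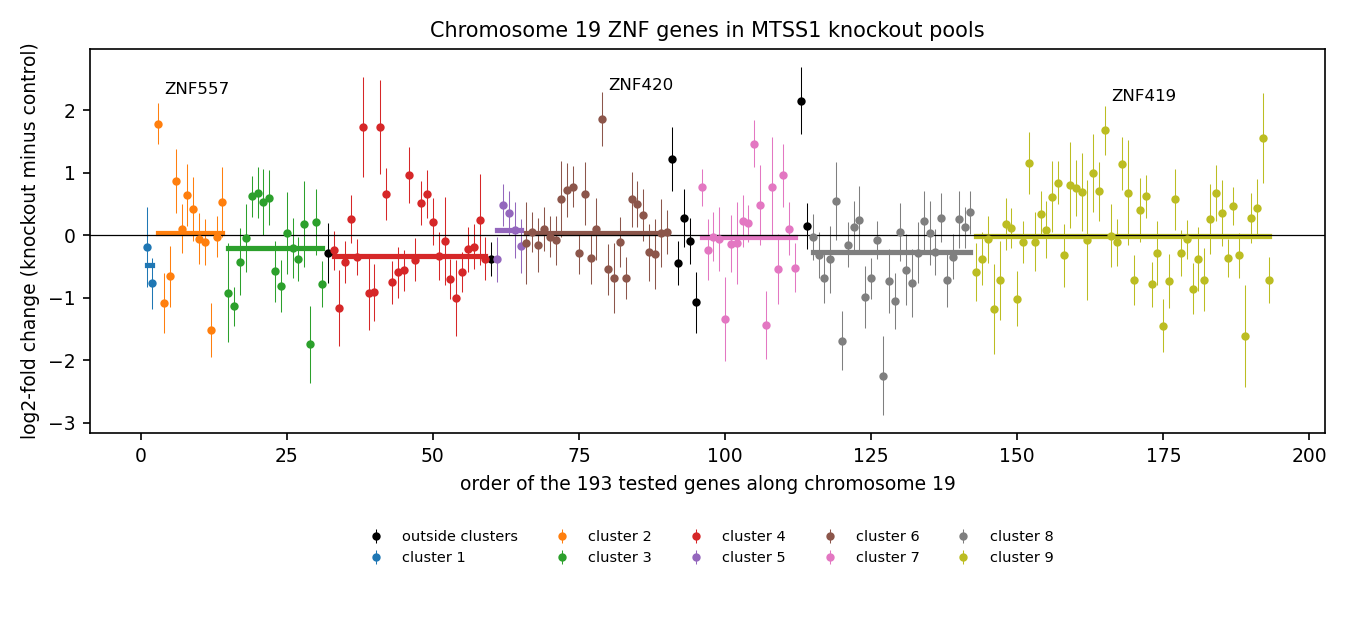
Log2-fold change (knockout minus control) of the 193 tested ZNF genes in their order along chromosome 19, colored by cluster, with bars of 1 SE and a horizontal line at each cluster's median. The 3 called genes are labeled and sit in clusters 2, 6, and 9, and the cluster medians stay between -0.48 and 0.08.

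The first cluster, from 2.8 to 2.9 Mb, held 5 genes, of which 2 were tested. ZNF555 had 9.07 and 9.83 CPM in the control pools and 5.58, 7.04, and 4.00 CPM in the knockout pools (log2-fold change -0.77). For ZNF554 the control pools had 1.25 and 6.26 CPM and enclosed the knockout pools. The cluster from 7.1 to 9.8 Mb, with 12 of 13 genes tested, had a median log2-fold change of 0.04 and contained ZNF557. Its most abundant gene was ZNF121, which has 9 fingers and no KRAB box. ZNF121 had 44.7 and 101 CPM in the control pools and between 60.6 and 74.9 CPM in the knockout pools, so that the groups overlapped.

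In the cluster from 11.5 to 12.6 Mb, the median over 17 of 23 genes was -0.21, and 6 genes lay below both control pools in every knockout pool (35.3%, against 19.2% of all tested genes) while 2 lay above (11.8%, against 22.2%). ZNF791 was its most abundant gene, with 93.8 and 206 CPM in the control pools and 69.7, 104, and 88.0 CPM in the knockout pools (log2-fold change -0.78, edgeR adjusted p = 0.241). ZNF69 differed more between the control pools, 8.755 against 36.65 CPM, than between control and knockout means. The cluster from 19.7 to 24.1 Mb, next to the centromere, is made of KRAB genes in 34 of 37 cases. It had the lowest GC content, with a median of 36.8% per transcript, and among the clusters with over 5 tested genes the lowest median log2-fold change (-0.33). Its summed level was 583 and 674 CPM in the control pools and 571, 496, and 456 CPM in the knockout pools, so that the groups did not overlap. Here ZNF430 had 60.3 and 125 CPM in the control pools and 52.9 to 56.4 CPM in the knockout pools (edgeR adjusted p = 0.222), and ZNF431 had 58.5 and 107 CPM against 51.3 to 61.1 CPM. Without control pool 1 the median of this cluster was 0.02.

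The small cluster from 34.7 to 35 Mb had 5 genes, all tested, and a median of 0.08. ZNF181 had 15.95 and 12.81 CPM in the control pools and 23.1, 20.9, and 16.2 CPM in the knockout pools, and ZNF302 overlapped between groups. In the cluster from 36.2 to 37.8 Mb, which contained ZNF420, 25 of 26 genes were tested and the median was 0.03. ZNF146 had 222 and 193 CPM in the control pools and 276, 191, and 177 CPM in the knockout pools, with a log2-fold change of 0.05 (95% confidence interval -0.66 to 0.75) that changed sign under several settings. ZNF566 had 34.7 and 106 CPM in the control pools and between 53.6 and 71.3 CPM in the knockout pools.

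The cluster from 43.5 to 45.1 Mb had a median of -0.02 over 17 of 23 genes. Its summed level was 310 and 785 CPM in the control pools, a wider spread than in any other cluster, and 454, 613, and 493 CPM in the knockout pools. Most of this spread came from ZNF428, with 182 and 634 CPM in the control pools and 268, 446, and 331 CPM in the knockout pools. The direction of ZNF428 differed with the control pool left out, as its log2-fold change was -0.86 without control pool 1 and 0.96 without control pool 2. ZNF576, a neighbor of ZNF428 with 4 fingers, had nearly equal levels of 39.6, 39.5, and 39.5 CPM in the knockout pools and 20.6 and 25.9 CPM in the control pools (log2-fold change 0.76, SE 0.30, edgeR adjusted p = 0.164).

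The cluster from 51.6 to 53.6 Mb holds 38 genes, 37 of them with a KRAB box, and 28 were tested. In 10 of the 28 every knockout pool lay below both control pools, and in 0 did every knockout pool lie above, beside 19.2% and 22.2% of all tested genes. The 10 genes were ZNF577, ZNF615, ZNF616, ZNF766, ZNF880, ZNF701, ZNF600, ZNF28, ZNF525, and ZNF765. Their log2-fold changes ranged from -0.28 for ZNF28 to -2.24 for ZNF880. The quasi-likelihood test of edgeR called 0 genes here, and DESeq2 also called 0. At edgeR's unadjusted p under 0.05, 3 were lower (ZNF880, ZNF615, and ZNF701) and 0 higher. The share of 10.7% lower was near the 9.23% of all tested genes, and 0% higher stands beside 14.1%. The summed level was 355 and 347 CPM in the control pools and 304, 315, and 280 CPM in the knockout pools, a small difference without overlap. The median log2-fold change was -0.28, and it stayed between -0.27 and -0.22 when each library was left out in turn. It was -0.060 without the filter on low counts and -0.14 with at least 10 counts in every library. Not every gene followed: ZNF331, an imprinted gene at the end of the cluster, had 44.7 and 26.8 CPM in the control pools and 36.2, 53.3, and 48.9 CPM in the knockout pools.

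The largest cluster, from 55.5 to 58.5 Mb near the end of the long arm, held 59 genes, of which 51 were tested. It contained ZNF419, its median log2-fold change was -0.01, and 12 genes lay above (23.5%) and 7 below (13.7%) both control pools in every knockout pool, beside 22.2% and 19.2% of all tested genes. When a gap of 0.5 Mb separated clusters, it split into a proximal part of 16 genes with a median of -0.09 and a distal part of 43 genes with a median of 0.26. ZNF787, a protein without a KRAB box, had 61.6 and 180 CPM in the control pools and 42.0, 74.4, and 63.2 CPM in the knockout pools. ZNF581 had 62.5 and 65.0 CPM in the control pools and 51.6, 68.2, and 87.5 CPM in the knockout pools, which enclosed the controls.

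**Figure D3:**
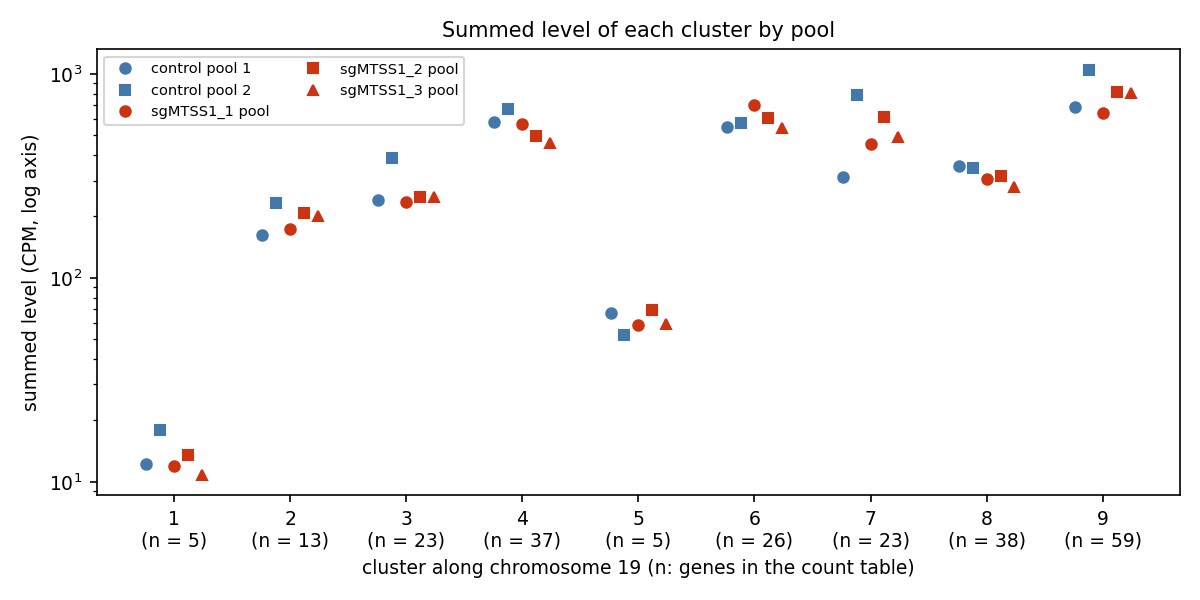
Summed level (CPM, log axis) of all ZNF genes in each of the 9 clusters, in order along chromosome 19, for the 2 control pools (blue) and 3 knockout pools (red). The groups are separate in clusters 4 and 8, where the knockout pools are lower, and the control pools of cluster 7 are far apart at 310 and 785 CPM.

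The control pools differed from each other more than the knockout pools did. Between the control pools 44 of the 193 genes (22.8%) differed by over 2-fold on the log2(CPM + 0.5) scale, as did 26.8% of all tested genes. Between pairs of knockout pools this held for 6 to 21 genes (3.11% to 10.88%), beside 5.98% to 13.001% of all tested genes. The median count of the tested members was 30 in each control library and 69, 51, and 47 in the knockout libraries. The part of this lower depth in the wider spread between control pools was not tested. The summed level of all 239 genes was 3154 CPM in control pool 1, 4381 CPM in control pool 2, and between 3295 and 3588 CPM in the knockout pools. Without ZNF428 these sums were 2971, 3746, and 2964 to 3142 CPM. The difference between the sgMTSS1_1 pool and the sgMTSS1_3 pool varied with the GC content of the transcript across these genes (Pearson correlation 0.533 over 193 genes that share the same libraries), and over all genes this correlation was 0.307. It was the largest among the pairs of pools. The others were 0.480 (sgMTSS1_1 and sgMTSS1_2), 0.206 (control pools), and 0.055 (sgMTSS1_2 and sgMTSS1_3). For the fitted log2-fold change it was -0.120 across these genes and 0.0012 over all genes. Without control pool 1, 8 of these genes were called lower (ZNF430, ZNF526, ZNF587, ZNF627, ZNF784, ZNF787, ZNF791, and ZNF865) and 1 higher, as 8.73% of all genes were called. Over all 5 libraries, the fit with GC and length offsets called ZNF627 lower, while the reported fit did not.

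Promoter sequences of 211 of the 239 genes were found in RefSeq (GRCh38.p14), 36 of them with more than 1 start. In the 250 bases before the start, the motif CCGGAAG, which ETS factors recognize, occurred on either strand in 34.6% of these genes, compared with 13.98% of all 15860 protein-coding genes with a promoter entry. The CCAAT box was present in 54.5% against 40.2%, and the GC box GGGCGG in 68.2% against 62.1%. In contrast, TATAAA was found in 3.32% against 11.9%, and CACGTG in 4.74% against 9.73%. The cAMP response element TGACGTCA occurred in 3.32% against 2.72%. No motif of these contains another, and a match is no evidence of binding.

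The windows of the 3 called genes are shown with matches in capitals, to let their upstream sequences be compared. They cover chr19:57487500-57487749 for ZNF419, chr19:37078183-37078432 for ZNF420 (the first of 2 starts listed), and chr19:7069453-7069702 for ZNF557, all on the plus strand.
ZNF419: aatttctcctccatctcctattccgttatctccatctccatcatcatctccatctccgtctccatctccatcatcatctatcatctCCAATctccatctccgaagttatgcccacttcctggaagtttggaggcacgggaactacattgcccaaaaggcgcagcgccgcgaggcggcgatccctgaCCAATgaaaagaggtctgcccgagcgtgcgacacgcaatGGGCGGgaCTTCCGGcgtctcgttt
ZNF420: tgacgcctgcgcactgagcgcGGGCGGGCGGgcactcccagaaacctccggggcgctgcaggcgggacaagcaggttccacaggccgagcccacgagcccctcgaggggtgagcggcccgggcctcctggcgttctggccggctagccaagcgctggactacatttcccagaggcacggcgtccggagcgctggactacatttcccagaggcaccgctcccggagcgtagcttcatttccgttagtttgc
ZNF557: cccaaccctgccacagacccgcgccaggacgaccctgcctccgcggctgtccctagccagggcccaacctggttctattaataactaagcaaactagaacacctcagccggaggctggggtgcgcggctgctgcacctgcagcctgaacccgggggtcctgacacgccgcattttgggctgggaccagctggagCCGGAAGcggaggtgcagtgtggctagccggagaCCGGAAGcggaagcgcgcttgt

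ZNF419 and ZNF557 had the ETS motif in this window, ZNF419 and ZNF420 the GC box, and only ZNF419 of the 3 the CCAAT box. No motif of the 6 was present in all 3 windows.

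The partners of KRAB proteins were examined through a list of 23 genes for the TRIM28 corepressor and heterochromatin, all of which were tested. Of these, 1 was called higher and 0 lower (4.35%, against 5.18% of all tested genes), and the median log2-fold change was 0.29. At an unadjusted p under 0.05 edgeR found 4 higher and 4 lower (17.4% each), beside 14.1% and 9.23% of all tested genes. In 10 genes (43.5%) every knockout pool lay above both control pools and in 5 (21.7%) below, beside 22.2% and 19.2%. The called gene was CBX3, which encodes HP1γ, a reader of methylated histone H3 at lysine 9. It had 484 and 634 CPM in the control pools and 2022, 1553, and 1358 CPM in the knockout pools (log2-fold change 1.56, SE 0.37, edgeR adjusted p = 0.0438). The call was lost with RLE factors and without any of the knockout pools. TRIM28 itself had 340 and 128 CPM in the control pools and 105, 149, and 152 CPM in the knockout pools (log2-fold change -0.79, SE 0.41, edgeR adjusted p = 0.284). This value came from control pool 1, without which it was 0.09. The methyltransferase gene SETDB1 had 26.6 and 13.1 CPM in the control pools and between 25.1 and 35.2 CPM in the knockout pools (log2-fold change 0.57, edgeR adjusted p = 0.402).

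Chromosome 19 also carries zinc finger genes with other symbols, and 9 of 12 were tested, of which 1 was called (11.1%, against 5.18% of all tested genes). It was ZFP14, a KRAB gene, with 11.3 and 10.7 CPM in the control pools and 45.1, 34.3, and 27.8 CPM in the knockout pools (log2-fold change 1.70, SE 0.35, edgeR adjusted p = 0.0280). This call was lost without any of the knockout pools. ZFP36, which the symbol rule also took, is an RNA-binding protein of another finger type and was not tested. Of 25 antisense or divergent lncRNA genes named after the chromosome 19 ZNF genes, 11 were tested and edgeR called 0, beside 5.18% of all tested genes. At an unadjusted p under 0.05 edgeR found 1 higher and 2 lower (9.09% and 18.2%, beside 14.1% and 9.23%). DESeq2 called 1, beside 9.03% of all genes. ZNF793-AS1 was the higher one and the gene called by DESeq2, with 3 and 0 counts in the control libraries and 66, 16, and 22 counts in the knockout libraries. ZNF561-AS1 was lower like ZNF561, with 5.94 and 5.36 CPM in the control pools and 1.95, 3.25, and 2.78 CPM in the knockout pools (edgeR adjusted p = 0.207). The other lower one was ZNF571-AS1, with 10.01 and 7.748 CPM in the control pools and 3.37, 3.43, and 1.91 CPM in the knockout pools (edgeR adjusted p = 0.0762). In contrast to ZNF561, the genes ZNF793 and ZNF571 overlapped between groups, with log2-fold changes of -0.28 and -0.30.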

How the data were processed

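RNA from TF-1 pools was sequenced with the QuantSeq 3′ FWD protocol in 50 bp single-end reads. Per the study's methods, the authors trimmed adapters with BBDuk, aligned reads to GRCh38 with HISAT2 2.1.0, and removed reads that were not uniquely mapped with SAMtools 1.10, which can lower counts of similar zinc finger genes. The authors deposited raw whole-number counts per Ensembl gene, and the counting program, annotation, strand setting, and handling of PCR duplicates are not given in the sources used here.

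Symbols, positions, and canonical transcripts came from GENCODE 44 (27211 of 27328 genes matched). Genes were filtered with filterByExpr (minimum count 10), TMM-normalized, and fitted with condition alone over all 5 libraries by edgeR 4.0.16 (glmQLFit and glmQLFTest, R 4.3.3, two-sided). P-values were adjusted by Benjamini-Hochberg over all 14391 tested genes. Each SE is the log2-fold change divided by the root of the F statistic. The biological coefficient of variation was 32.2%. Limits that a count of 0 or 3 allows cover counting error only. A KRAB A box required 14 or more of its conserved columns. Named genes were the called members, the 5 highest and the 5 lowest log2-fold changes at unadjusted p under 0.05 without overlap of the groups, the 2 most abundant of each cluster, MTSS1, TRIM28, SETDB1, filtered members at 0 in 1 group with at least 10 counts in the other, and called genes of the lists. ZNF226, ZNF627, the 10 genes below both controls in 1 cluster, and the lncRNAs were named after their values were seen. The members and lists were chosen with earlier results of these data known. Alternatives were other scaling factors (RLE, library size, upper quartile), filters, DESeq2 1.42.0, limma-voom (limma 3.58.1), thinning, a replicate block, GC and length offsets, other thresholds and gaps, and leaving out each library. The procedure was tested on simulated counts. One marker of another cell type is not reported here.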

Additional observations from a re-analysis of the deposited data

How the results depend on the processing

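With 2 control pools and low counts, the confidence intervals of most single genes were wide. The calls of ZNF557, ZNF420, and ZNF419 were all lost without the sgMTSS1_1 or the sgMTSS1_3 pool. Called as higher were 0 to 5 genes and as lower 0 to 8 when each library was left out in turn, and 7 to 20 were higher and 6 to 21 lower at an unadjusted p under 0.05. Their median log2-fold change was then -0.094 to 0.093, and the cluster medians were -0.82 to 1.38 (cluster 1), 0.031 to 0.51 (2), -0.41 to 0.022 (4), -0.017 to 0.25 (5), 0.011 to 0.21 (6), -0.10 to 0.34 (7), and -0.025 to 0.15 (9). Library size alone called 2 genes lower (ZNF615 and ZNF880), gave 5 higher and 19 lower at the unadjusted p, and medians of -0.22 (all), -0.18 (cluster 7), and -0.40 (cluster 8), while the median of all tested genes moved from -0.03 to -0.17. Upper quartile factors gave 7 higher and 18 lower and a median of -0.17. Without a filter beyond 1 count 5 were called higher, and medians were 0.082 (all), 0.57 (cluster 1), 0.081 (3), -0.079 (4), 0.34 (7), and -0.060 (8), over all 239 genes. At least 10 counts in every library gave 6 lower and medians of 0.12 (cluster 7) and -0.14 (8). GC and length offsets called 5 higher and 1 lower (ZNF627), with 18 lower at the unadjusted p. With library size alone, 2.59% of these genes and 5.56% of all genes tested were called in either direction. The shares were 2.09% and 5.03% without a filter, and 3.11% and 6.66% with the offsets. At an adjusted p under 0.1, 5 were called in each direction, and no share of all genes is given here for that threshold. DESeq2, which was run without the filter and so covered all 239 genes, gave medians of 0.46 (cluster 1), 0.22 (7), and -0.18 (8). The median of cluster 7 was 0.10 with limma-voom. ZNF557, ZNF420, and ZNF419 were called under all 3 scaling alternatives, both filters, DESeq2, limma-voom, the block, and the offsets, and thinning lost ZNF419.

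The replicate numbers 1 and 2 occur in both groups, but nothing says that such pools were handled together (correlation of same-numbered deviations 0.198 and 0.1095). Number 3 occurs only in the knockout group, so with the block the sgMTSS1_3 pool adds nothing to the comparison. With the replicate block 4 genes were called, the 3 above and ZNF226, and the median of cluster 7 was 0.18. Over all genes the block gave 1094 calls and DESeq2 1272, against 745.

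Signs of some values reversed, and not only of those near 0. In the reported fit ZNF69 was 0.53, MTSS1 -0.58, and TRIM28 -0.79. Leaving out each library gave -0.91 to 1.41 (ZNF554), -0.57 to 0.63 (ZNF121), -0.15 to 1.93 (ZNF69), -0.18 to 0.21 (ZNF146), -0.74 to 0.89 (ZNF566), -0.86 to 0.96 (ZNF428), -0.053 to 0.28 (ZNF581), -1.04 to 0.16 (MTSS1), and -1.30 to 0.094 (TRIM28). ZNF554, ZNF566, and ZNF428 were 0.12, 0.038, and 0.0068 with limma-voom and 0.14, 0.15, and 0.021 with the block, and ZNF121 was 0.042 without a filter. ZNF146 was -0.11 with library size alone, -0.034 with upper quartile factors, -0.010 when thinned, and -0.047 with the offsets. ZNF581 was -0.0040 with library size alone, -0.10 with the block, and -0.11 with the offsets. Apart from the constructions themselves, the cause was not tested.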
